A study of Mus musculus with 6 samples.

Results

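Sox10, S100b, Ngfr, Gfra3, Th, Dbh and Chat are genes of the nerves of the heart and of the glia that wrap them. These 7 genes were chosen by their symbols among the 54093 genes of an RNA-seq table of the mouse right atrium (RA), where each symbol occurs once. They were read as 4 glia genes (Sox10, S100b, Ngfr and Gfra3), 2 genes of sympathetic neurons (Th and Dbh) and 1 gene of cholinergic neurons (Chat). These names follow common use, and the cell type behind each level was not tested. The RAs came from wild-type C57BL/6 mice at postnatal day 21 (P21), with 3 libraries after a sham operation and 3 after volume overload (VO). VO was made at P7 by an aortocaval fistula (ACF), an opening between the abdominal aorta and the inferior vena cava that raises the return of blood to the heart. The study used mice of both sexes, and the labels do not say whether a library is 1 animal or a pool, so the p-values measure only the spread between these libraries. The comparison asked whether the nerve and glia genes of the RA differed between VO and sham.

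The RA receives sympathetic fibres, whose neurons make noradrenaline from tyrosine through the enzymes TH, DDC and DBH, and parasympathetic fibres, whose neurons make acetylcholine with CHAT. The cell bodies of cardiac sympathetic neurons lie outside the heart in paravertebral ganglia, whereas the parasympathetic ganglia lie on the atria, largely within epicardial fat. RNA of a neuron is found mostly in its cell body, while the glia along the axons carry their own nuclei within the tissue. Sox10 encodes the transcription factor of neural crest glia, S100b a calcium-binding protein of Schwann cells that is also made by fat cells, Ngfr the low-affinity neurotrophin receptor p75, and Gfra3 the receptor for the ligand artemin, which signals together with RET.

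The 3 upstream stretches given here belong to 3 genes of transmitter synthesis and storage that were highest, or seen at all, in the library VO 3: Th, Chat, and Slc18a3, the vesicular acetylcholine transporter gene that lies inside the span of Chat. They are from RefSeq (build GRCm38.p6), cover those of the 250 bases before the RefSeq start of each gene that no annotated exon overlaps, and run 5′ to 3′ on the minus strand. Capitals mark TGACG, the core of the cyclic AMP response element, TGACGTCA, its full palindrome, which holds TGACG on both strands, and ATTA, the core bound by many homeodomain factors, each searched on both strands.
Th, chr7:142900015-142900245: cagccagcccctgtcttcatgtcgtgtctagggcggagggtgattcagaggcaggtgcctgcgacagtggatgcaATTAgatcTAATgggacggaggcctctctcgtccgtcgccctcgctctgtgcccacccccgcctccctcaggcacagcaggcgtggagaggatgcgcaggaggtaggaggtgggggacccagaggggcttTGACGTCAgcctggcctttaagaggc
Chat, chr14:32465990-32466159: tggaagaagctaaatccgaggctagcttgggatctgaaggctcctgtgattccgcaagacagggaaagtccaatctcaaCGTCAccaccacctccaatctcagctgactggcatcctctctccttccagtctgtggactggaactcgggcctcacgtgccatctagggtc
Slc18a3, chr14:32464851-32465041: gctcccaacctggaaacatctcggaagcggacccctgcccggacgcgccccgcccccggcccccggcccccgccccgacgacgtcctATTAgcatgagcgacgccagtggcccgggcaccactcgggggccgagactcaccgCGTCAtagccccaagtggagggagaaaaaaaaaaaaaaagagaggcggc
The RefSeq start of Th lies inside the longer span that the deposited table gives for this gene, so its stretch lies within that span. The Th stretch held 1 full TGACGTCA, whose first base lay 45 bases before the RefSeq start, and 2 ATTA matches. Over all 32851 windows of 250 bases, TGACGTCA occurred in 1.55%, TGACG in 17.8% and ATTA in 54.9%. The Chat and Slc18a3 stretches each held 1 TGACG, and Slc18a3 also held 1 ATTA. The 250 bases before Dbh, which overlap an annotated exon and are not printed, held 1 TGACG and 3 ATTA matches and 0 TGACGTCA. A window was at hand for 5 of the 7 genes, with Sox10 and Gfra3 unmatched. These matches are descriptions of letters and were not tested as sites.

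Levels are given in FPKM, fragments scaled to the length of the gene and to the size of the library. The 6 libraries held 15963082 to 17237903 fragments on genes, and an FPKM of 1 on 1 kilobase of gene stood for 15.6 to 18.1 fragments. Genes with a mean of at least 0.1 FPKM over the 6 libraries were tested, which left 19053 genes and 6 of the 7 members, all but Chat. VO was set against sham with limma on log2(FPKM + 0.1), and its p-values, which are two-sided, were adjusted by Benjamini-Hochberg across the 19053 genes and called under 0.05. Fold changes are on that scale, which understates the change of low genes. With 3 libraries on each side, 0.1 is the smallest p that an exact permutation test could reach. In bulk tissue, fewer cells of a type and less RNA per cell cannot be told apart. Markers of atrial muscle were high in all libraries, with Myl7 between 2586 and 8501 FPKM and Nppa between 1026 and 5513 FPKM, while the ventricular gene Myl2 ranged from 1.54 to 60.4 FPKM and Irx4 did not pass 0.259.

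None of the 6 tested members passed the adjusted threshold (limma's smallest adjusted p = 0.521, for Ngfr). At an unadjusted p under 0.05 the count was 0 of 6 as well, also with voom on fragments, against 9.84% of all tested genes, and 0.0157% of all tested genes passed the adjusted threshold. No member separated the 2 groups without overlap, where 8.04% of all tested genes were higher and 9.75% lower in VO without overlap. The library VO 3 stood apart. Its adipocyte genes summed to 454 FPKM, against 3.59 to 8.11 in the other 5 libraries, and values are therefore also given without it. VO 3 held the highest value of the 6 libraries in 5 of the 6 tested members, or 83.3%, against 16.0% of all tested genes, and in Chat. The corresponding share of all tested genes was 23.7% for sham 1, 10.2% for sham 2, 11.1% for sham 3, 26.2% for VO 1 and 12.7% for VO 2. In S100b, Ngfr and Th, VO 3 was at least 2-fold above every other library on FPKM + 0.1, a pattern that 1.87% of all tested genes showed for VO 3 and that was looked for after the values had been seen. The other 5 libraries showed it in 0 of the 6 members, where the share of all tested genes was 0.871% for sham 1, 0.493% for sham 2, 0.625% for sham 3, 3.43% for VO 1 and 0.845% for VO 2.

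**Figure D1:**
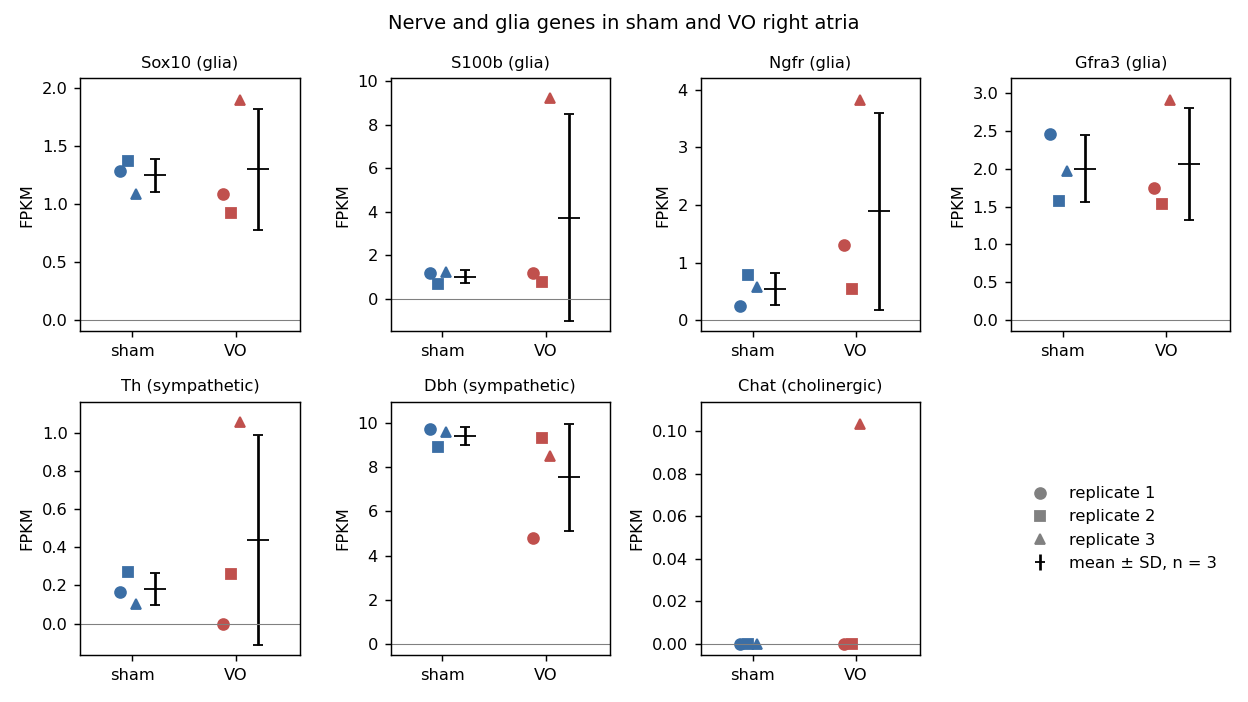
FPKM of the 7 members in each library, with sham in blue and VO in red, the marker shape giving the replicate and the black bar the mean ± SD (n = 3, not drawn for Chat). VO 3 (red triangle) is the highest point in every panel except Dbh, where VO 1 is the lowest at 4.79 FPKM.

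Sox10 (ENSMUSG00000033006, chromosome 15, 79154908 to 79165240, minus strand, GRCm38) read 1.29, 1.37 and 1.09 FPKM in sham 1 to 3 and 1.08, 0.925 and 1.89 FPKM in VO 1 to 3, from 46 to 95 fragments. VO 1 and VO 2 lay just under the sham libraries and VO 3 above them, so the groups overlapped. The group means were 1.25 ± 0.145 and 1.30 ± 0.519 FPKM (SD, n = 3 each), with a log2 fold change of 0.00064 with a 95% interval from -0.67 to 0.67 (limma's adjusted p = 1.00). Without VO 3 it was -0.28, with an interval from -0.83 to 0.26.

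S100b (ENSMUSG00000033208, chromosome 10, 76253853 to 76261159, plus strand) read 1.17, 0.665 and 1.24 FPKM in sham 1 to 3. In VO it read 1.19, 0.785 and 9.22 FPKM. VO 1 and VO 2 lay within the sham range, and VO 3, with 225 fragments, stood 7.43 times above the highest of the other libraries. The log2 fold change of 1.01 (standard error 0.83, 95% interval -0.94 to 2.96, limma's adjusted p = 0.655) became -0.03 without VO 3 (interval -0.94 to 0.87) and 1.67 without VO 2. All 8 genes of the adipocyte list were highest in VO 3 as well, against 16.0% of all tested genes. Most of the 8 passed the limit for testing only through VO 3. The part of fat tissue in the level of S100b was not tested.

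Ngfr (ENSMUSG00000000120, chromosome 11, 95568818 to 95587735, minus strand) read 0.242, 0.791 and 0.570 FPKM in sham and 1.31, 0.534 and 3.81 FPKM in VO. VO 3 was highest and VO 1 second, while VO 2 lay within the sham range. Its means were 0.535 ± 0.276 and 1.89 ± 1.71 FPKM (SD, n = 3 each). The log2 fold change was 1.37 (standard error 0.68, 95% interval -0.23 to 2.96, limma's adjusted p = 0.521) and 0.68 without VO 3 (interval -0.76 to 2.13). Without VO 2 it was 1.995, with an unadjusted p of 0.022 and an adjusted p of 0.365 in limma. Sham 1 had 13 fragments and VO 3 had 216.

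Gfra3 (ENSMUSG00000024366, chromosome 18, 34689903 to 34720387, minus strand) read 2.45, 1.57 and 1.97 FPKM in sham and 1.74, 1.54 and 2.90 FPKM in VO. As for Sox10, VO 3 was the highest library and VO 2 the lowest. The log2 fold change was 0.01 (95% interval -0.64 to 0.66, limma's adjusted p = 0.991), and -0.25 without VO 3 (interval -0.85 to 0.35). Gfra3 stood at 1.15 to 1.91 times Sox10 in the 6 libraries, whereas S100b stood at 0.485 to 1.14 times Sox10 in 5 libraries and at 4.87 times in VO 3. Ngfr stood at 0.189 to 1.21 times Sox10 in those 5 libraries and at 2.01 times in VO 3. In VO 3, S100b and Ngfr thus stood outside the range of their ratios to Sox10 in the other libraries, and Gfra3 within it.

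Other genes of Schwann cells and satellite glia were read from a list of 25, of which 21 were tested. Their median log2 fold change was 0.27, against 0.02 over all tested genes, and -0.02 without VO 3. Of these genes 0 passed the adjusted threshold, while 1 was higher and 2 were lower in VO at an unadjusted p under 0.05, where 3.73% and 6.11% of all tested genes were. The higher gene was Fabp7, a fatty acid binding protein of immature glia, with 0.668, 0.789 and 0.491 FPKM in sham and 1.46, 0.981 and 1.61 FPKM in VO (log2 fold change 0.94, standard error 0.27, limma's adjusted p = 0.490). Its groups did not overlap, and its log2 fold change was 0.81 without VO 3. The lower genes were Art3 (log2 fold change -0.68, limma's adjusted p = 0.499) and the potassium channel gene Kcna1 (-1.09, adjusted p = 0.506), whose level in sham 1, 8.26 FPKM, was more than 2-fold above every other library. Art3 read 70.4 to 186.3 FPKM, far above Sox10. Both Art3 and Kcna1 were highest in sham 1 and lowest in VO 1, as was the atrial muscle gene Myl7. The part of muscle RNA in their levels was not tested. Pmp22, a myelin protein gene also used outside nerves, and the sodium channel gene Scn7a were the other most abundant genes of the list. Pmp22 had 54.2 ± 1.32 FPKM in sham and 67.4 ± 11.3 in VO, and Scn7a 15.9 ± 0.575 and 18.9 ± 2.27 (SD, n = 3 each), both without overlap.

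The glia genes differed among themselves in VO 3, and the genes in this paragraph were chosen after their values were seen. Prx, a protein of myelinating Schwann cells, read 0.341 to 0.576 FPKM in 5 libraries and 1.60 in VO 3. Cdh19, a cadherin of Schwann cells and their precursors, read 2.96 to 3.86 FPKM in the same 5 libraries and 5.41 in VO 3. Erbb3, the receptor through which axonal neuregulin acts on Schwann cells, read 3.77, 3.58 and 3.41 FPKM in sham and 2.28, 2.69 and 3.36 FPKM in VO. Its groups did not overlap (log2 fold change -0.37, limma's adjusted p = 0.509). VO 3 was the highest library in 11 of the 21 tested genes of this list and at least 2-fold above all others in 4 of them, among which were L1cam, Prx and Ncmap. Ncmap passed the limit for testing only through VO 3, with a mean of 0.0647 FPKM over the other 5 libraries, so its place in both counts was fixed by the filter.

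The 2 sympathetic members were read at very different levels. Th (ENSMUSG00000000214, chromosome 7, 142892752 to 142931128, minus strand), the rate-limiting enzyme of catecholamine synthesis, read 0.163, 0.270 and 0.104 FPKM in sham and 0, 0.259 and 1.05 FPKM in VO. These values came from 6, 11 and 4 fragments in sham and 0, 10 and 41 in VO. The count of 41 has an exact Poisson 95% interval of 29.4 to 55.6 fragments. For the 0 in VO 1 the same interval runs from 0 to 3.69 fragments, or up to 0.0860 FPKM. Both intervals cover counting error only. VO 1 was thus the lowest and VO 3 the highest of all libraries. The log2 fold change was 0.35 with a 95% interval from -1.67 to 2.38 (limma's adjusted p = 0.891), -0.51 without VO 3 and 1.25 without VO 1. With all 6 libraries it was -0.31 with a pseudocount of 0.01 and -0.34 with voom on fragments, so that its sign was not settled.

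Dbh (ENSMUSG00000000889, chromosome 2, 27165233 to 27183200, plus strand), which turns dopamine into noradrenaline, read 9.74, 8.94 and 9.58 FPKM in sham and 4.79, 9.32 and 8.52 FPKM in VO. It was the most abundant member in 5 of the 6 libraries, the exception being VO 3, where S100b was higher. Its values came from 234 to 420 fragments. VO 1 was far below the other 5 libraries, and VO 2 lay within the sham range. The means were 9.42 ± 0.423 and 7.54 ± 2.42 FPKM (SD, n = 3 each). The log2 fold change was -0.37 (standard error 0.24, 95% interval -0.94 to 0.20, limma's adjusted p = 0.592). Without VO 1 it was -0.08, with an interval from -0.31 to 0.15. Dbh was 52.6 times Th by the sham means and 8.07 times Th in VO 3. A list of 9 cardiomyocyte genes also had its lowest sum in VO 1, 9430 FPKM, against 19862 to 25870 in sham, 17208 in VO 2 and 13592 in VO 3, with none of the 9 at 0. Dbh stood at 2.95 to 3.96 per 1000 FPKM of the cardiomyocyte gene Myh6 in the 6 libraries, lowest in VO 1 and highest in VO 3. The part of cardiomyocyte RNA in the level of Dbh was not tested.

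A list of 16 other noradrenergic genes had 11 tested, with a median log2 fold change of 0.16, and of -0.17 without VO 3. Of these 0 had an adjusted p under 0.05 and 0 an unadjusted p under 0.05 in limma. The most abundant were Slc18a2, the vesicular monoamine transporter gene, at 3.23 to 4.81 FPKM in all 6 libraries, Cyb561 at 2.76 to 4.99 FPKM and the monoamine oxidase gene Maoa at 2.12 to 3.59 FPKM. The noradrenaline transporter gene Slc6a2, which marks sympathetic neurons most closely, was at 0 in 3 libraries and at most 0.0870 FPKM, in VO 3. In VO 3 alone the transmitter peptide gene Npy reached 4.73 FPKM from 44 fragments, against 0 to 0.102 elsewhere. Ddc, the enzyme between TH and DBH, reached 1.61 FPKM there against 0.110 to 0.413. Both genes were named after their values were seen. Npy and Phox2a passed the limit for testing only through VO 3, with means of 0.0205 and 0.0719 FPKM over the other 5 libraries.

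Chat (ENSMUSG00000021919, chromosome 14, 32408203 to 32465989, minus strand) was at 0 FPKM in sham 1 to 3, VO 1 and VO 2, and at 0.103 FPKM in VO 3. The VO 3 value stands for 8 fragments (exact Poisson 95% interval 3.45 to 15.8). For a 0 the same interval runs from 0 to 3.69 fragments, with an upper limit of 0.0432 to 0.0504 FPKM in the 5 libraries at 0. Its mean over the 6 libraries, 0.0172 FPKM, was under the limit for testing, and no fold change is given. Slc18a3 (chromosome 14, 32462438 to 32464850) shares none of its exonic bases with Chat exons. It was also at 0 in the 5 libraries and reached 0.983 FPKM from 39 fragments in VO 3.

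Cholinergic genes beyond Chat were highest in the same library. Of 14 genes 7 were tested, and VO 3 was the highest library in 7 of 7. Slc18a3, Chrna3 and Slc10a4 passed the limit for testing only through VO 3, with means of 0, 0.0257 and 0.0230 FPKM over the other 5 libraries. Their place in that count was fixed by the filter, and they also enter the median. The median log2 fold change of the 7 was 1.01, and 0.03 without VO 3. It is the same with Slc18a3, at 0 in sham, set to its lower bound. That bound was at least 4.30-fold for the VO mean against a floor of 3 fragments per library. The VO mean of Slc18a3 rested on VO 3 alone, with VO 1 and VO 2 at 0. In limma 0 of the 7 had an adjusted p under 0.05 and 0 an unadjusted p under 0.05. Slc5a7, the choline transporter gene of cholinergic endings, read 0.0911 to 0.206 FPKM in 5 libraries and 1.94 in VO 3 (limma's adjusted p = 0.621). Chrna3, the nicotinic receptor subunit of autonomic ganglia, read 0 to 0.0583 FPKM in 5 libraries and 0.855 in VO 3, a gene named after its value was seen. The esterase genes Ache and Bche, which muscle and glia also use, differed less. Ache read 1.34 to 2.31 FPKM elsewhere and 2.55 in VO 3, and Bche 4.35 to 4.95 and 7.37. The genes Hmx2 and Sst were at 0 in all 6 libraries.

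**Figure D2:**
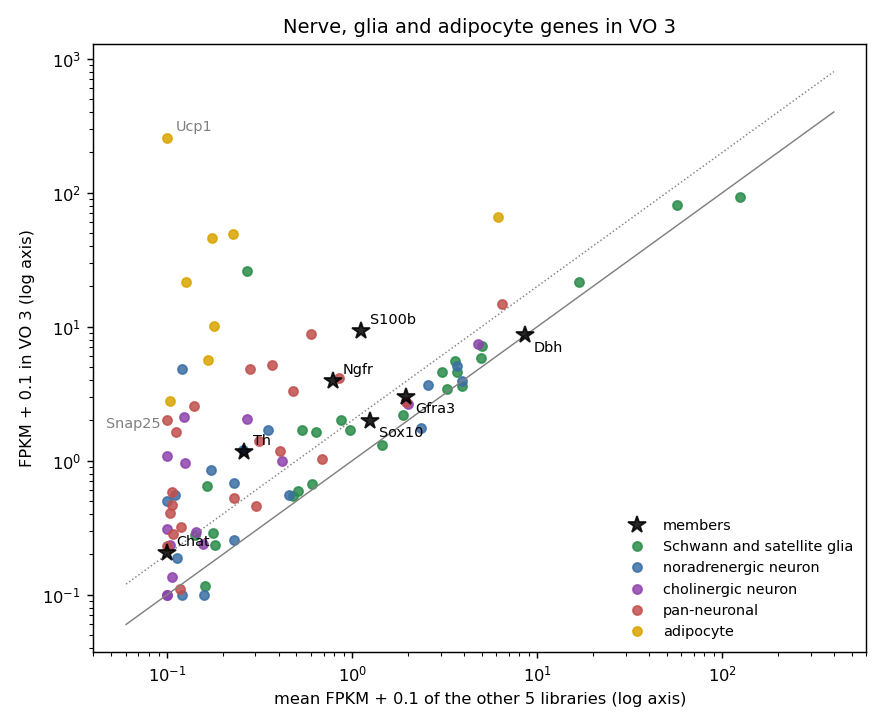
Level in VO 3 (vertical log axis) against the mean of the other 5 libraries (horizontal log axis), both as FPKM + 0.1, for the members (stars) and for 4 nerve lists and the adipocyte list (dots), with the solid line at equality and the dotted line at 2-fold. Dbh lies at equality and Sox10 and Gfra3 between the lines, whereas S100b, Ngfr, Th and the adipocyte genes lie above the dotted line.

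Genes used by neurons of all kinds were mostly highest in VO 3 too. Of 22 pan-neuronal genes 15 were tested, with a median log2 fold change of 1.02, and of 0.11 without VO 3. VO 3 was highest in 14 of the 15 and at least 2-fold above all others in 11. Snap25, Nefl and Syt1 passed the limit for testing only through VO 3, with means of 0, 0.0401 and 0.0114 FPKM over the other 5 libraries. Their place in both counts was fixed by the filter, and they also enter the median. Snap25, a protein of synaptic vesicle fusion, was at 0 in the other 5 libraries and at 1.90 FPKM, from 212 fragments, in VO 3, and was named after its value was seen. Its lower bound on the same floor was at least 23.4-fold for the VO mean against sham. That mean rested on VO 3 alone, as VO 1 and VO 2 were at 0 like sham. The bound left the median of the list as it was. The neuronal tubulin gene Tubb3 read 0.230 to 1.09 FPKM in 5 libraries and 8.66 in VO 3. Uchl1 read 5.64 to 7.10 and 14.6 FPKM, and Nsg1 1.59 to 2.07 and 2.63 FPKM. At an unadjusted p under 0.05, 2 genes of the list were higher in VO and 0 lower, where 3.73% and 6.11% of all tested genes were. In limma 0 passed the adjusted threshold. The 2 higher genes were the intermediate filament gene Prph, with 0.133 ± 0.0360 FPKM in sham and 2.005 ± 2.67 in VO, and the growth cone gene Gap43, with 0.577 ± 0.0759 and 2.01 ± 1.77 (SD, n = 3 each). Both separated the groups without overlap, though narrowly at VO 2. Prph read 0.689 FPKM in VO 1 and 0.245 in VO 2, against at most 0.161 in sham. Gap43 read 1.27 FPKM in VO 1 and 0.725 in VO 2, against at most 0.645 in sham (limma's adjusted p = 0.506 for each). Without VO 3 their log2 fold changes were 1.18 and 0.66.

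Sensory neuron genes had other libraries on top. Of 10 genes 6 were tested, with a median log2 fold change of 0.22, VO 3 was highest in 0 of them, and 0 passed the adjusted threshold or had an unadjusted p under 0.05 in limma. The most abundant were the sodium channel gene Scn10a at 1.47 to 3.78 FPKM, Calcb at 0.728 to 2.31 and Avil at 0.170 to 0.578 FPKM. Scn10a and Calcb were highest in VO 1. Prdm12 was at 0 in all 6 libraries. Tac1, Trpv1 and Scn11a had means of 0.0299, 0.0338 and 0.0241 FPKM, under the limit for testing. The part of sensory neurons in the levels of the tested genes was not tested.

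The ligands and receptors that maintain cardiac nerves were read from a list of 24 genes, of which 19 were tested. Their median log2 fold change was 0.10, and -0.06 without VO 3. Of the 19, 0 passed the adjusted threshold. At an unadjusted p under 0.05, 2 were lower in VO and 0 higher, where 6.11% and 3.73% of all tested genes were. Nrtn, the neurturin gene, whose product acts through GFRA2 on parasympathetic neurons, read 119.6, 80.1 and 65.4 FPKM in sham and 53.7, 68.0 and 57.3 FPKM in VO. VO 2 lay within the sham range (log2 fold change -0.53, standard error 0.22, limma's adjusted p = 0.507). Cntfr, the receptor gene for ciliary neurotrophic factor, read 10.1, 7.17 and 8.56 FPKM in sham and 2.36, 5.45 and 6.12 FPKM in VO without overlap (log2 fold change -0.97, standard error 0.35, limma's adjusted p = 0.506). Nrtn and Cntfr were both highest in sham 1 and lowest in VO 1, as was the atrial muscle gene Myl7. The part of muscle RNA in their levels was not tested. Sort1 and Ednrb, also abundant, differed by less than their spread, with log2 fold changes of -0.08 and 0.04. Artn, the ligand of GFRA3, did not pass 0.128 FPKM in any library. Ret, the shared signalling receptor of this family, read 0.0999 to 0.232 FPKM in 5 libraries and 1.84 in VO 3. Artn and Ret were named after their values were seen. VO 3 was highest in 6 of the 19 genes and at least 2-fold above all others in 3, Ret, Ntrk2 and Ntrk3. Among all tested genes these shares were 16.0% and 1.87%. Ntrk3 passed the limit for testing only through VO 3, with a mean of 0.0922 FPKM over the other 5 libraries, and enters both counts and the median.

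Of the lists for other cell types, only the adipocyte list moved with VO 3. All 8 genes of an adipocyte list were at least 2-fold above every other library there, against 1.87% of all tested genes. Plin1, Cidec, Lep, Retn, Ucp1 and Adrb3 passed the limit for testing only through VO 3 and enter that count. Their means over the other 5 libraries were 0 to 0.0789 FPKM. The list summed to 454 FPKM in VO 3, against 4.79 to 8.11 in sham, 3.59 in VO 1 and 7.77 in VO 2. Ucp1, which marks brown fat, was at 0 in the other 5 libraries and at 253.6 FPKM in VO 3. Adipoq read 0 to 0.489 FPKM elsewhere and 48.7 in VO 3, and Cidea 3.50 to 7.69 and 65.7. The part of fat tissue in the levels of S100b and of the other members in VO 3 was not tested. Melanocytes also use Sox10. Their list of 8 genes summed to 75.5 to 122.9 FPKM in sham and 68.2 to 108.8 in VO, with 0 genes highest in VO 3. Nearly all of that sum was Mlana, at 66.8 to 121.8 FPKM, while Dct and Pmel did not pass 1.35 FPKM and Mc1r was at 0 in all 6 libraries, and their part in the level of Sox10 was not tested. VO 1, the library with the lowest Dbh and Th, was highest in all 10 tested genes of a lymphocyte list of 12, with a list sum of 18.5 FPKM against 4.27 to 7.60 in the other 5 libraries, and Ptprc at 6.74 FPKM against 1.502 to 2.05. Cd79b and Cd79a were highest there as well, at 4.62 and 1.32 FPKM, and Ms4a1 was higher than sham in VO at an unadjusted p under 0.05 (limma's adjusted p = 0.506). The cardiomyocyte list summed to less in all 3 VO libraries than in any sham library. In that list Tnnt2 and Actc1 were lower in VO at an unadjusted p under 0.05 (limma's adjusted p = 0.506 and 0.507). The ventricular gene Myl3 was lower in VO as well, from 180.2 ± 64.2 to 102.3 ± 18.5 FPKM (SD, n = 3 each, limma's adjusted p = 0.506). The part of these tissues in the member values was not tested.

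**Figure D3:**
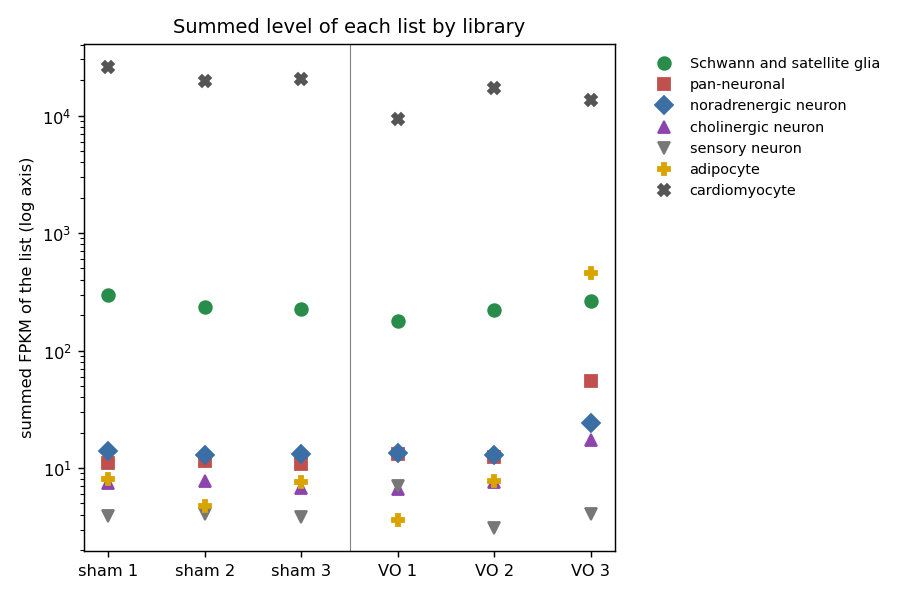
Summed FPKM of 7 lists in each library on a log axis. The adipocyte sum rises from at most 8.11 FPKM in 5 libraries to 454 in VO 3, the pan-neuronal sum from at most 13.2 to 54.6 and the cholinergic sum from at most 7.70 to 17.3. The Schwann and satellite glia sum in VO 3, 266.5 FPKM, lies within the range of the others. That sum rests largely on Art3, at 70.4 to 186.3 FPKM and 92.1 in VO 3, and does not show the other glia genes. Pmp22, the next most abundant, read 52.7 to 62.0 FPKM in the other 5 libraries and 80.4 in VO 3.

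**Figure D4:**
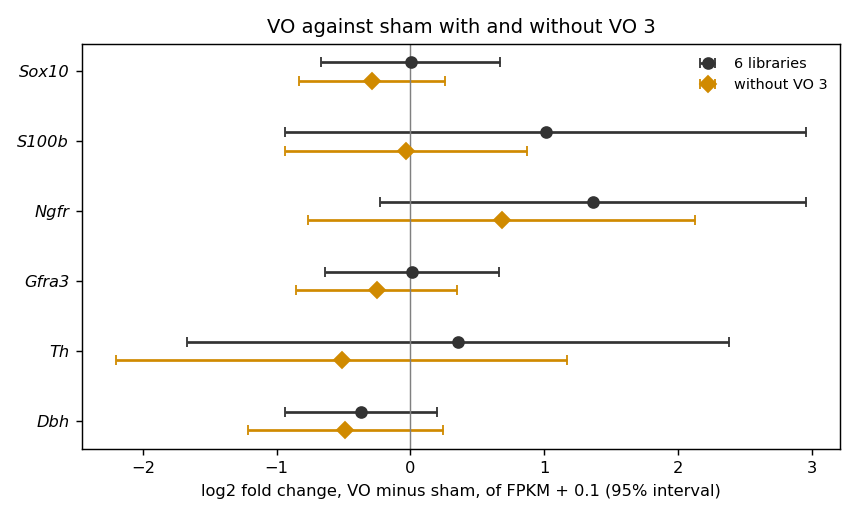
Log2 fold changes of the 6 tested members (VO minus sham, FPKM + 0.1) with 95% intervals from limma, with all 6 libraries (circles) and without VO 3 (diamonds). Every interval includes 0, and without VO 3 the estimate of S100b moves from 1.01 to -0.03 and that of Ngfr from 1.37 to 0.68.

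Ordered by their sham means, the members ran from Dbh (9.42 ± 0.423 FPKM) over Gfra3 (1.999 ± 0.440), Sox10 (1.25 ± 0.145), S100b (1.03 ± 0.314), Ngfr (0.535 ± 0.276) and Th (0.179 ± 0.0841) to Chat at 0 in every sham library (SD, n = 3). Sox10 and S100b, next to each other in that order, differed by less than the spread of S100b. In VO 3 the order was S100b, Dbh, Ngfr, Gfra3, Sox10, Th and Chat.

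The genes with the most similar pattern were sought for each tested member among 12627 genes with a mean of at least 1 FPKM, by the root mean square difference of centred log2 values over the 6 libraries. For Sox10 they were Nbl1, Fam19a5 and Rab9, at differences of 0.048 to 0.094. For S100b, whose own SD was 1.31, they were Apoc1, Scd1, a fatty acid desaturase gene, and Fam13a, at 0.29 to 0.33. For Ngfr they were Nnat, Pygl and Gm5424, at 0.26 to 0.47, and for Gfra3 they included Rmdn3 and Kctd13, at 0.091 and 0.10. For Th they were Syn2 and Sncg, 2 genes of neurons, and Cib2, at 0.28 to 0.35. For Dbh they were Pcgf1, Amd1 and Rasl10b, at 0.053 to 0.063. With 6 libraries and this many genes, close matches occur for most patterns, and these names are a description only.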

How the data were processed

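RAs of sham-operated and VO mice at P21 were read by RNA-seq (3 libraries each). According to the study's methods and the submitters' processing notes, the authors aligned 150-base paired-end reads with HISAT2 2.0.5, counted fragments per gene with featureCounts 1.5.0-p3 and deposited FPKM values. The notes list GRCm38. Coordinates were identical to a GRCm38 annotation for 98.4% of 54039 shared genes. Of the deposited lines, 1 was incomplete and left out. FPKM times gene length was a whole multiple of 1 step per library (tolerance 0.001) for 100% of values above 0, which gave back fragments. Since a fragment is not an independent molecule, Poisson intervals and floors of 3 fragments cover counting error only.

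Median-of-ratios scaling (factor 1.00 in each library) left the proportions of the libraries as deposited. Genes with a mean of at least 0.1 FPKM were fitted as log2(FPKM + 0.1) with limma 3.58.1 in R 4.3.3 (lmFit, eBayes with trend, VO against sham, no covariates). The minimum of 0.1 keeps genes of rare cells. Tables were handled in Python 3.11.15 and figures drawn with matplotlib 3.10.9. The fit was tested on simulated data. The members and lists were chosen with earlier results of these data known. Named genes are the members, in each list the 3 most abundant genes and up to 4 with the smallest p under 0.05, and for each tested member the 3 nearest patterns, while others were named after their values were seen. Alternatives were other pseudocounts (1 and 0.01), filters, scalings, variance settings, voom on fragments, the replicate block and leaving out each library. The authors' DESeq2 test was not repeated. Single values of a few list and pattern genes are not reported here.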

Additional observations from a re-analysis of the deposited data

How the results depend on the processing

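Depth limits Th and Chat, with 0 to 41 and 0 to 8 fragments per library, and 3 libraries per group limit all comparisons. Across the 18 alternatives (17 for Th, which is under the stricter filter) no member passed the adjusted threshold, with adjusted p from 0.365 to 1.00. Dbh stayed lower and Ngfr higher in VO in every one, and 1 member, Ngfr, had an unadjusted p under 0.05 without VO 2 (0 to 1 with each library left out).

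With each library left out, log2 fold changes ranged from -0.28 to 0.20 for Sox10, from -0.03 to 1.67 for S100b, from -0.25 to 0.18 for Gfra3 and from -0.51 to 1.25 for Th. The signs of Sox10, Gfra3, Th and S100b turned in some alternatives. In the main fit Sox10 and Gfra3 were near 0, while Th was at 0.35 and S100b at 1.01. Sox10 was -0.0032 with a pseudocount of 0.01, -0.14 with quantile normalization, -0.0091 with voom, -0.088 without sham 3 and -0.28 without VO 3. Gfra3 was -0.084 with quantile normalization, -0.14 without sham 2 and -0.25 without VO 3. Th was -0.31 with a pseudocount of 0.01, -0.34 with voom and -0.51 without VO 3, and S100b -0.032 without VO 3. The sign of Th thus turned both without VO 3 and, with all 6 libraries, under other handling of low values.

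Of the 79 tested genes in the 6 nerve lists, 3 were higher and 4 lower at an unadjusted p under 0.05. Of all tested genes 3.73% were higher and 6.11% lower on the same limit. The higher count was 1 with a pseudocount of 1, 0 with a mean of at least 1 FPKM, 8 with TPM and 6 with array weights, and 1 to 5 with a library left out. The lower count was 2 with a pseudocount of 1, without a filter, without the trend and with array weights, and 0 to 4 with a library left out, 0 without sham 1. TPM shifted the median of all genes from 0.02 to 0.16. Of all tested genes 1875 had an unadjusted p under 0.05, and 1129 to 2381 with a library left out. The count of all genes past the adjusted threshold, 3, was 5 with a pseudocount of 0.01, 1 with a mean of at least 1 FPKM, without a filter, with quantile normalization and with voom, 7 with TPM and with array weights, 6 without the trend, and 0 to 0 with a library left out.

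Replicate numbers were not taken as pairs: the correlation of deviations between same-numbered sham and VO libraries was -0.034, 0.017 and -0.016, and only the libraries numbered 2 matched best with their own number. With the replicate block, 1245 genes had an unadjusted p under 0.05 and 0 an adjusted p under 0.05, and the lower count in the nerve lists was 1. The cause of these moves was not tested.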
